A study of Mus musculus with 6 samples.

Results

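Lysine methylation of histones is written by methyltransferases and erased by demethylases, and the genes of both families are described here in mouse hematopoietic stem cells (HSCs) that lack Merit40. The members are the genes whose current symbol begins with Kmt, Setd, Setdb, Nsd or Kdm followed by a number, without the sex-linked Kdm5c, Kdm5d and Kdm6a. This rule found 36 genes, 21 methyltransferase-family genes and 15 demethylases, among 25206 probe sets, and all 36 were tested with no filter on level. Expression was measured on Affymetrix Mouse Gene 2.0 ST arrays, with 3 arrays of wild-type (WT) and 3 of Merit40-/- animals, the latter without Merit40, a component of the BRCA1-A and BRISC deubiquitinase complexes that Babam1 encodes. The cells were freshly isolated from bone marrow in the CD150+CD48- LSK gate (lineage-negative, Sca-1 and c-Kit positive), sorted in 2 rounds from mice described as young adults, with no treatment in either group. Neither the strain, the exact age, the way the allele was made nor the number of mice per array is stated in the labels, so the tests measure the spread between these arrays. Values are on the log2 scale throughout, and differences are Merit40-/- minus WT with the moderated standard error (SE) of limma.

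The SET domain is the catalytic fold of most histone lysine methyltransferases, which transfer methyl groups from S-adenosylmethionine to 1 residue or a few. Methylation of lysine 4 of histone H3 (H3K4) marks promoters and enhancers, H3K36 methylation marks transcribed bodies of genes, and H3K9 methylation and H4K20 trimethylation mark silent chromatin. Demethylases of the KDM1 family use a flavin cofactor, whereas the other KDM families carry a Jumonji (JmjC) domain that needs iron and 2-oxoglutarate. Several of these enzymes are known for roles in blood: Kmt2a (MLL1) maintains HSCs and is rearranged in leukaemia, and Kdm1a (LSD1) works with the Gfi1 and Gfi1b repressors during blood cell maturation.

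The deletion showed on the arrays. Babam1 (Entrez Gene 68251) read 7.91, 8.04 and 8.05 in WT HSCs and 4.29, 3.87 and 4.01 in Merit40-/- HSCs, with no overlap between genotypes. Its difference was -3.94 (SE 0.14) with an adjusted p of 5.04e-05 in limma. By an exact permutation test, 2-sided, p was 0.1, and no smaller p is possible with 3 arrays per group. Of the HSC markers, 10 of 12 were measured, and their mean level ran from 8.19 to 8.54 on the WT arrays and from 8.32 to 8.69 on the Merit40-/- arrays. The sorting markers Kit and Slamf1 (CD150) were bright on every array, at 10.93 or above and 7.71 or above, and the differences of the list ran from -0.16 (Tek) to 0.31 (Robo4). Of the lineage and CD48 genes, 8 of 10 were measured, with mean levels of 4.40 to 4.65 in WT and 4.47 to 4.82 in Merit40-/-, and the T and B cell genes Cd3e, Cd4, Cd8a, Cd79a and Ms4a1 lay below the median level of all genes (4.93) on all 6 arrays. The other 3, Cd48 (4.99 to 5.88), Itgam (6.03 to 6.88) and Ly6g (5.88 to 7.66), which the gate should remove, read above that median on all 6 arrays. Differences in this list ran from -0.08 (Cd8a) to 0.81 (SE 0.31) for the granulocyte gene Ly6g, which read highest on Merit40-/- replicate 1. Ly6g was the 1 of 8 (12.5%) with an unadjusted p under 0.05, beside 4.22% of all genes (adjusted p = 0.999 in limma). The part of cells with these markers in the members' values was not tested. Single arrays stood apart in markers of other cells: 10 of 10 skeletal muscle genes were measured, with a mean level of 8.80 on Merit40-/- replicate 1 and 4.65 to 5.04 on the other 5 arrays, and 10 of 10 osteoclast genes had a mean level of 5.38 on Merit40-/- replicate 3 and 4.25 to 4.44 elsewhere. The muscle genes differed by 0.64 (Atp2a1) to 2.18 (Tnnt3). Of the osteoclast genes 6 of 10 were highest on Merit40-/- replicate 3, led by Ctsk (7.94, beside 3.55 to 3.89 elsewhere) and Acp5 (7.91, beside 4.70 to 5.19), while Dcstamp, Calcr, Itgb3 and Tnfrsf11a were not, and the differences ran from -0.37 (Itgb3) to 1.31 (Ctsk). Mmp9 (higher) and Itgb3 (lower) were the 2 of 10 (20%) with an unadjusted p under 0.05, and 0 were called. The mitosis genes, 19 of 20 measured, averaged 8.15, 8.11 and 7.92 in WT and 7.70, 8.12 and 7.66 in Merit40-/-, with 0 called and differences from -0.48 (Dlgap5) to -0.05 (Cenpf). All 19 were lower in the Merit40-/- mean, with a median of -0.21, though Merit40-/- replicate 2 averaged no lower than WT. Cenpe was the 1 of 19 (5.26%) with an unadjusted p under 0.05, beside 4.22% of all genes. In sorted bulk RNA of this kind, fewer cells of a type and less RNA per cell cannot be told apart.

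None of the 36 histone lysine methyltransferase and demethylase genes passed the test between genotypes. At an adjusted p under 0.05 in limma, 0 of 36 members were called, beside 0.00431% of all genes tested (1 of 23185, Babam1 itself). The smallest adjusted p of a member was 0.999 in limma. At an unadjusted p under 0.05, 0 of 36 members were counted, beside 4.22% of all genes. The unmoderated test per gene likewise called 0 members and counted 0 at an unadjusted p under 0.05. There was also no member whose WT and Merit40-/- arrays failed to overlap, 0 of 36, beside 9.05% of all genes.

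The differences of the members were small as well as uncalled. They ran from -0.26 for the H3K9 and H3K36 demethylase Kdm4c to 0.20 for the H3K4 methyltransferase Setd1b, with a median of -0.046 beside 0.0052 over all genes. Of all genes tested, 85.5% had a difference no larger in size than that of Kdm4c, and 83.1% of the genes at or above the median level did. For 36 of 36 members the 95% interval excluded a 2-fold difference in either direction, as it did for 96.4% of all genes. Within the narrower limit of 1.5-fold lay 31 of 36 members (86.1%), beside 73.2% of all genes. The 5 members whose intervals reached past 1.5-fold were Kdm7a, Kdm4c, Kdm2a, Kdm8 and Kmt5c. By class, 20 of 21 methyltransferases (95.2%) and 11 of 15 demethylases (73.3%) lay within 1.5-fold. The members' median spread between the highest and the lowest of the 6 arrays was 0.398. It was 0.492 over all genes and 0.537 over those at or above the median level. The low spread was that of the methyltransferases, at 0.374, while the demethylases stood at 0.480. Of the 36 members, 35 had a mean level above the median of all genes.

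**Figure D1:**
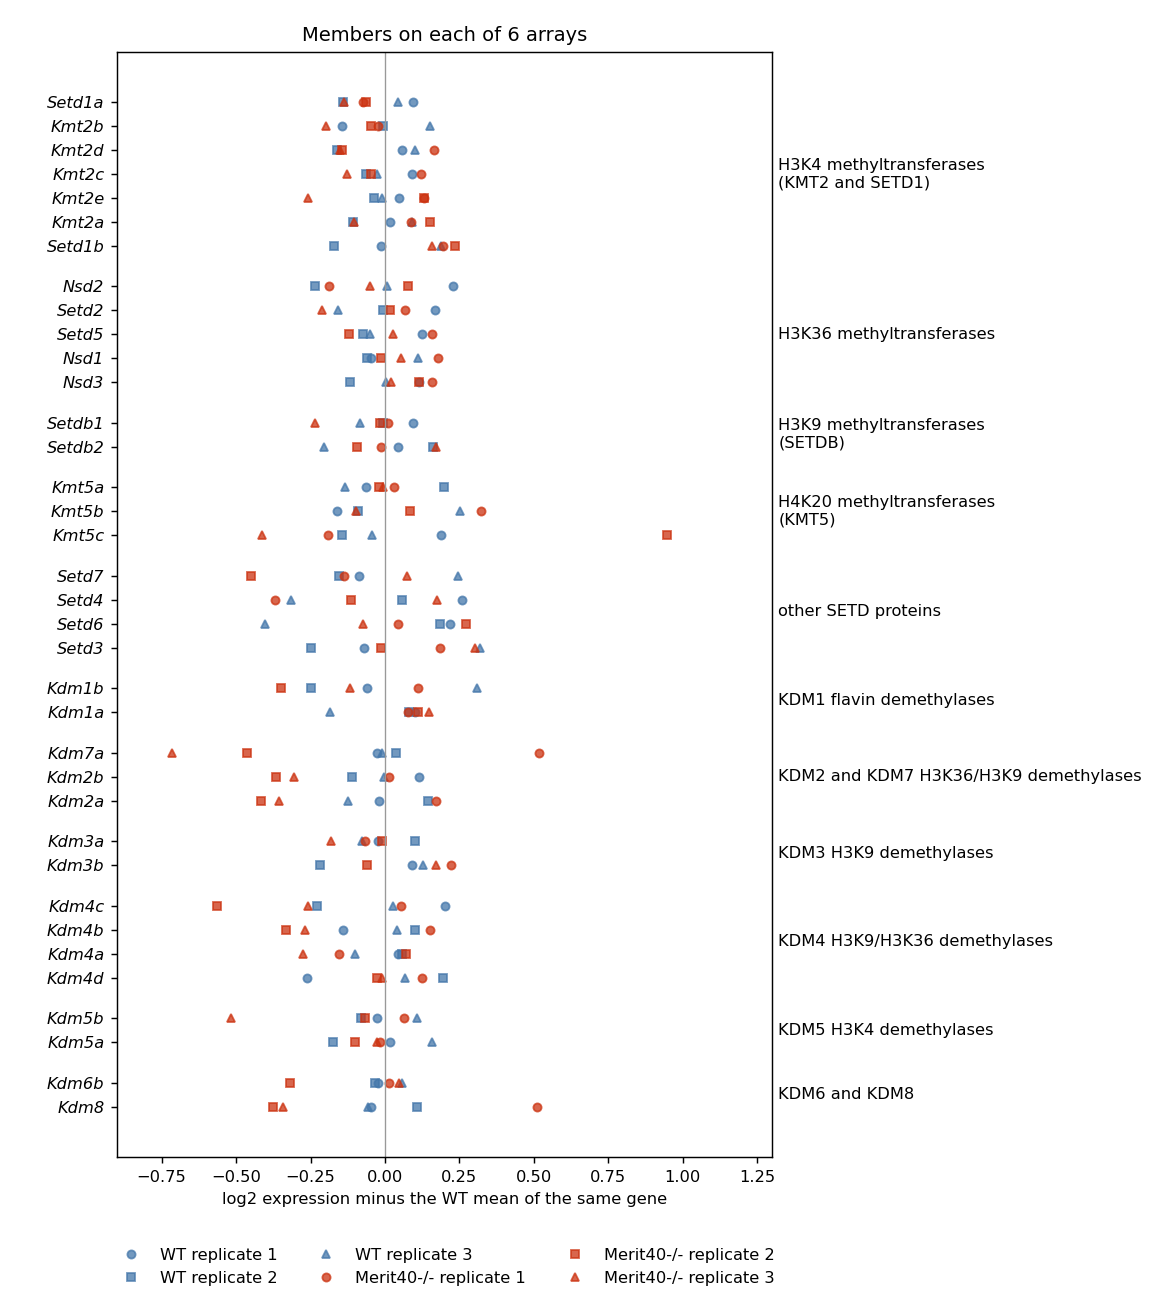
Log2 expression of each of the 36 members on the 6 arrays, as the difference from the WT mean of the same gene (x axis), grouped by enzyme family (y axis). Blue points are WT and red points Merit40-/- arrays, with 1 symbol per replicate number; the colours overlap in every row, and the points farthest from 0 belong to Kmt5c on Merit40-/- replicate 2 and Kdm7a on Merit40-/- replicate 3.

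**Figure D2:**
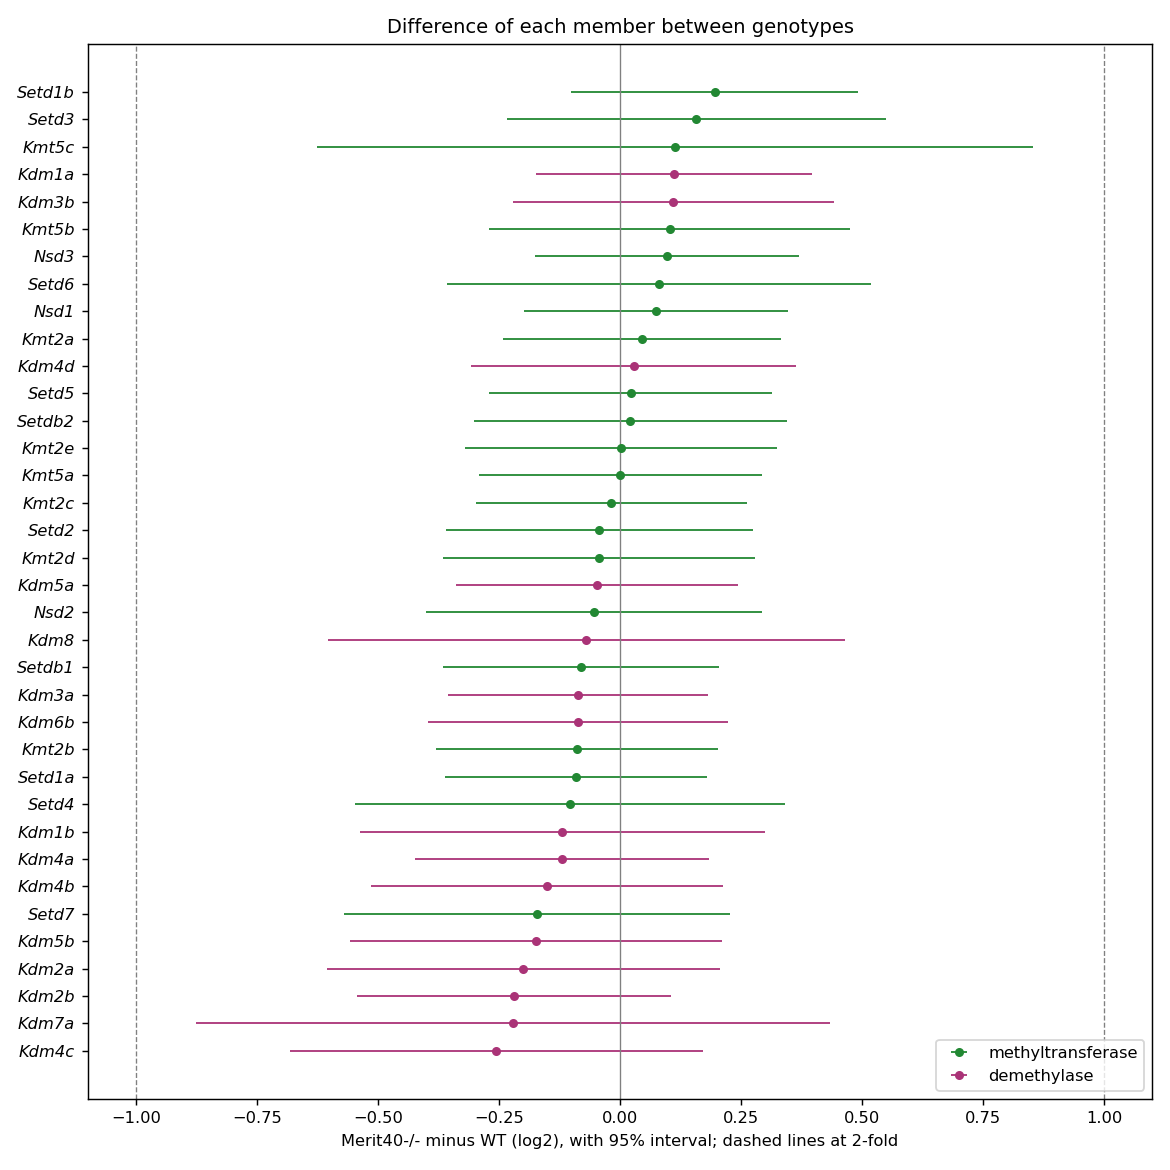
Difference between genotypes (Merit40-/- minus WT, log2) of each member with its 95% interval from limma, ordered by size; green marks methyltransferases and purple demethylases. Every interval includes 0 and lies between the dashed lines at 2-fold, and 12 of the 15 demethylases lie below 0.

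The KMT2 and SETD1 group, mostly H3K4 methyltransferases of the COMPASS-like complexes, has 7 members. Their differences ran from -0.09 to 0.20, with a median of -0.019. Kmt2a, which maintains Hox gene expression, read 9.16, 9.04 and 9.23 in WT HSCs and 9.23, 9.29 and 9.04 in Merit40-/- HSCs. Its difference was 0.04 (SE 0.12), with a 95% interval of -0.24 to 0.33, and the arrays of the genotypes were interleaved. Kmt2d (MLL4), which with Kmt2c methylates enhancers, read 7.88, 7.66 and 7.92 in WT HSCs and 7.98, 7.67 and 7.67 in Merit40-/- HSCs, a difference of -0.04 (SE 0.14). Its paralogue Kmt2c differed by -0.02, and Kmt2b by -0.09. Kmt2e (MLL5), a family member without known H3K4 methyltransferase activity, differed by 0.00. The paralogues Setd1a and Setd1b, which carry out much of the H3K4 trimethylation at promoters, lay at opposite ends of this group. Setd1a read 7.96, 7.72 and 7.91 in WT and 7.79, 7.80 and 7.72 in Merit40-/-, a difference of -0.09 (SE 0.12). Setd1b read 7.54, 7.38 and 7.74 in WT and 7.75, 7.79 and 7.71 in Merit40-/-, a difference of 0.20 (SE 0.13) or 1.15-fold. The 3 Merit40-/- values of Setd1b lay within 0.08 of each other and 2 of the WT arrays lay below them, while WT replicate 3 lay among them. Neither gene passed the test (adjusted p = 0.999 in limma for both), and the difference between the 2 genes was not tested.

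The H3K36 methyltransferases differed little, with values from -0.05 to 0.10 over 5 members and 5 of 5 intervals within 1.5-fold. Setd2, the enzyme of H3K36 trimethylation in transcribed genes, read 8.97, 8.79 and 8.64 in WT HSCs and 8.87, 8.82 and 8.59 in Merit40-/- HSCs. Its difference was -0.04 (SE 0.14). Nsd1, which places H3K36 dimethylation, read 9.28, 9.27 and 9.44 in WT and 9.51, 9.32 and 9.38 in Merit40-/-, a difference of 0.07 (SE 0.12). Among its paralogues, Nsd2 was scattered in WT at 8.60, 8.14 and 8.38 and read 8.19, 8.45 and 8.32 in Merit40-/-, and Nsd3 read 7.67, 7.43 and 7.56 and 7.71, 7.67 and 7.57. Setd5, whose histone methyltransferase activity is debated, differed by 0.02. In each of these genes the WT and Merit40-/- arrays overlapped.

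Of the H3K9 methyltransferase genes 1 was lower and 1 higher in the Merit40-/- mean, while 3 of 3 H4K20 genes were higher, with none called. Setdb1, the H3K9 methyltransferase that silences retroelements together with Trim28, read 7.65, 7.55 and 7.47 in WT and 7.56, 7.54 and 7.32 in Merit40-/-. Its difference was -0.08 (SE 0.12), and only Merit40-/- replicate 3 lay below the WT arrays. Setdb2 read 7.04, 7.16 and 6.80 and 6.98, 6.91 and 7.17, a difference of 0.02 (SE 0.14). Of the H4K20 enzymes, Kmt5a (SET8), which monomethylates H4K20 during cell division, read 8.84, 9.10 and 8.77 in WT and 8.93, 8.88 and 8.89 in Merit40-/-. Its group means were 8.90 in both genotypes (difference 0.00041), with a 95% interval of -0.29 to 0.29. Kmt5b, of H4K20 di- and trimethylation, differed by 0.10 (SE 0.16).

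Kmt5c, the second gene of H4K20 di- and trimethylation, had the widest spread of all members. The values were 7.33, 7.00 and 7.10 in WT HSCs and 6.95, 8.09 and 6.73 in Merit40-/- HSCs. Merit40-/- replicate 2 stood 0.76 above the highest of the other 5 arrays, and the other Merit40-/- arrays lay below all 3 WT arrays. The resulting difference of 0.11 (SE 0.32) rested on that array: without Merit40-/- replicate 2 the difference was -0.30, of the opposite sign, and it was not called in either case (adjusted p = 0.999 and, without that array, 1.00 in limma).

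Of the remaining SETD proteins, several methylate targets other than histones. Setd7, which methylates H3K4 and non-histone proteins, read 8.45, 8.39 and 8.78 in WT HSCs and 8.40, 8.09 and 8.61 in Merit40-/- HSCs. Its difference of -0.17 (SE 0.17) was the lowest among the methyltransferase-family genes, and Merit40-/- replicate 2 alone lay well below the WT arrays. Setd3, the histidine methyltransferase of actin, read 8.33, 8.15 and 8.72 in WT and 8.58, 8.39 and 8.70 in Merit40-/-, a difference of 0.16 (SE 0.17). Setd6, which methylates the NF-kB subunit RelA, differed by 0.08 (SE 0.19), and Setd4 by -0.10 (SE 0.19). WT values of Setd3, Setd4 and Setd6 were as far apart as 0.57 to 0.62 on the 3 arrays, so that differences of this size lie within the spread between replicates.

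Demethylases of the flavin-dependent KDM1 family differed in opposite directions without passing the test. Kdm1a (LSD1), which removes H3K4 mono- and dimethylation in the CoREST complex, read 9.21, 9.19 and 8.92 in WT HSCs and 9.18, 9.21 and 9.25 in Merit40-/- HSCs. Its difference was 0.11 (SE 0.12), and the 3 Merit40-/- arrays lay close together, with WT replicate 3 as the single low value. Kdm1b (LSD2) read 5.90, 5.71 and 6.27 in WT and 6.07, 5.61 and 5.84 in Merit40-/-, a difference of -0.12 (SE 0.18).

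The JmjC demethylases Kdm2a, Kdm2b and Kdm7a had 3 of 3 members lower in the Merit40-/- mean, with none passing the test. Kdm2b, which binds unmethylated CpG islands and recruits a variant Polycomb repressive complex, read 7.05, 6.83 and 6.94 in WT HSCs and 6.95, 6.57 and 6.63 in Merit40-/- HSCs. The group levels were 6.94 ± 0.11 (SD, n = 3) for WT and 6.72 ± 0.20 (SD, n = 3) for Merit40-/-, a difference of -0.22 (SE 0.14) or 1.16-fold lower. Kdm2a, its H3K36 demethylase paralogue, read 8.31, 8.48 and 8.21 in WT and 8.51, 7.92 and 7.98 in Merit40-/-, a difference of -0.20 (SE 0.18). Kdm7a, a demethylase of H3K9 and H3K27, read 7.02, 7.08 and 7.03 in WT, within 0.06 of each other, and 7.56, 6.58 and 6.33 in Merit40-/-. Its difference was -0.22 (SE 0.28). In all 3 genes Merit40-/- replicates 2 and 3 lay below every WT array, and Merit40-/- replicate 1 lay at or above the WT mean. Kdm4b, Kdm4c and Kdm8 showed the same arrangement. With Merit40-/- replicate 1 set aside, the genotypes did not overlap, in either direction, for 19.6% of all genes tested.

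Among the other JmjC families, the KDM4 group had 3 of 4 members lower. Kdm4c, the member with the lowest difference of all 36, read 8.08, 7.65 and 7.90 in WT HSCs and 7.93, 7.31 and 7.62 in Merit40-/- HSCs. Its difference was -0.26 (SE 0.19), or 1.19-fold lower. Kdm4b read 5.25, 5.49 and 5.43 in WT and 5.54, 5.06 and 5.12 in Merit40-/-, a difference of -0.15 (SE 0.16), and Kdm4a differed by -0.12 (SE 0.13). Kdm4d, a gene known for its expression in testis, was the only member below the median level of all genes on all 6 arrays, at 3.70, 4.16 and 4.03 in WT and 4.09, 3.94 and 3.95 in Merit40-/-, where log2 differences are compressed. Of the H3K9 demethylases of the KDM3 family, Kdm3a read 8.44, 8.56 and 8.38 in WT and 8.39, 8.45 and 8.28 in Merit40-/-, a difference of -0.09, and Kdm3b read 8.86, 8.55 and 8.89 and 8.99, 8.70 and 8.93, a difference of 0.11.

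Of the H3K4 demethylases, Kdm5b read 8.21, 8.16 and 8.35 in WT HSCs and 8.30, 8.17 and 7.72 in Merit40-/- HSCs. Its difference of -0.17 (SE 0.17) rested on Merit40-/- replicate 3, which lay 0.44 below the lowest of the other 5 arrays. Kdm5a read 8.05, 7.86 and 8.19 in WT and 8.02, 7.93 and 8.00 in Merit40-/-, a difference of -0.05 (SE 0.13). Kdm6b, the H3K27 demethylase that can be induced by inflammatory signals, read 7.25, 7.24 and 7.33 in WT and 7.28, 6.95 and 7.32 in Merit40-/-, a difference of -0.09 (SE 0.13), with a single low value on Merit40-/- replicate 2. Kdm8, a JmjC oxygenase first described as an H3K36 demethylase, read 5.85, 6.01 and 5.84 in WT and 6.41, 5.53 and 5.56 in Merit40-/-, a difference of -0.07 (SE 0.23), with the same arrangement of arrays as Kdm7a.

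By class, 12 of 15 demethylases (80%) and 9 of 21 methyltransferase-family genes (42.9%) had a lower mean in Merit40-/-, beside 48.5% of all genes tested. The median difference was -0.12 for the demethylases and 0.0018 for the methyltransferases. The class medians of the arrays did not separate the genotypes. As the median over genes of the deviation from the WT mean, the demethylases stood at -0.022, 0.037 and 0.028 on WT replicates 1, 2 and 3, and at 0.078, -0.32 and -0.26 on Merit40-/- replicates 1, 2 and 3. The methyltransferases stood at 0.058, -0.074 and 0.0043 in WT and at 0.066, -0.013 and -0.075 in Merit40-/-, while the median of all genes stayed between -0.0054 and 0.0079. The demethylase median on Merit40-/- replicate 1 was thus the highest of the 6 arrays and those on replicates 2 and 3 the lowest. The gap between the class medians of the differences, -0.12 with all arrays, was -0.23 without Merit40-/- replicate 1, -0.051 without replicate 2 and -0.078 without replicate 3 of that genotype. The comparison by class was not planned beforehand, and the difference between the classes was not tested.

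**Figure D3:**
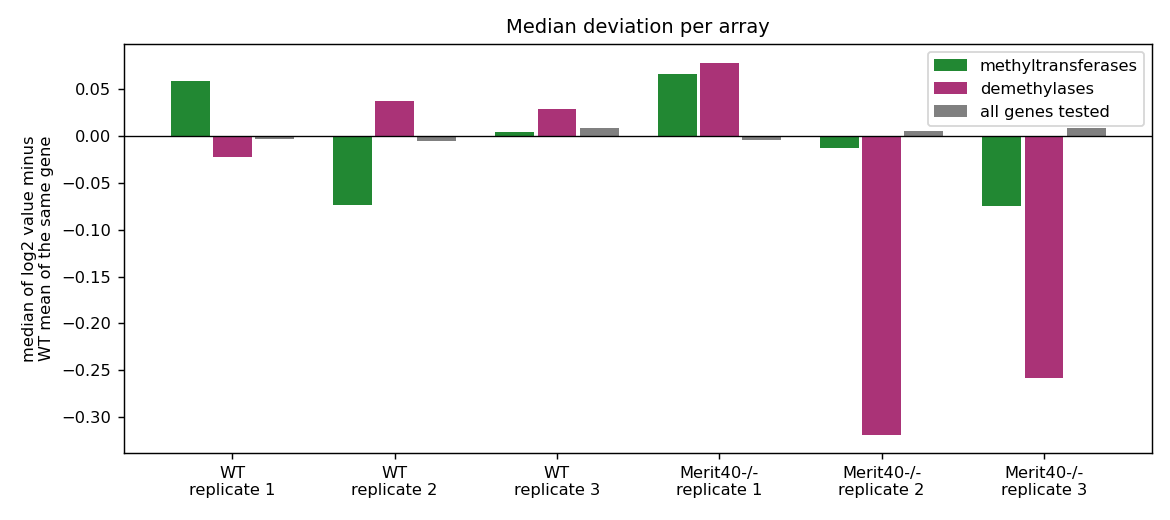
Median over the 21 methyltransferases (green), the 15 demethylases (purple) and all genes tested (grey) of the log2 value minus the WT mean of the same gene (y axis), for each array (x axis). The demethylase bars reach -0.32 and -0.26 on Merit40-/- replicates 2 and 3 but 0.078 on replicate 1, and the grey bars stay between -0.0054 and 0.0079.

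Merit40-/- replicate 1, the array with high skeletal muscle genes, was the array whose omission moved the demethylases most. It was singled out here from these same values, so the counts and SEs without it are a description and not a test. On that array 11 of 15 demethylases and 10 of 21 methyltransferases read higher than on both other Merit40-/- arrays, as did 31.2% of all genes tested. Without it, 4 of 36 members (11.1%) had an unadjusted p under 0.05, beside 4.89% of all genes, and all 4 were lower demethylases: Kdm7a, Kdm8, Kdm2a and Kdm2b. Kdm7a then differed by -0.59 (SE 0.14), or 1.50-fold lower. Kdm2a differed by -0.38 (SE 0.14), Kdm8 by -0.36 (SE 0.13) and Kdm2b by -0.34 (SE 0.14). Kdm4c differed by -0.41 (SE 0.18) and Kdm4b by -0.30 (SE 0.14). None of the 36 members was called without that array either, with a smallest adjusted p of 0.965 in limma, beside 0.00431% of all genes called. The genotypes did not overlap for 7 of 36 members (19.4%), near the 19.6% of all genes for 3 arrays against 2: Kdm2a, Kdm2b, Kdm4b, Kdm4c, Kdm7a and Kdm8 were lower and Kdm1a higher. The part of the muscle genes in these values was not tested.

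**Figure D4:**
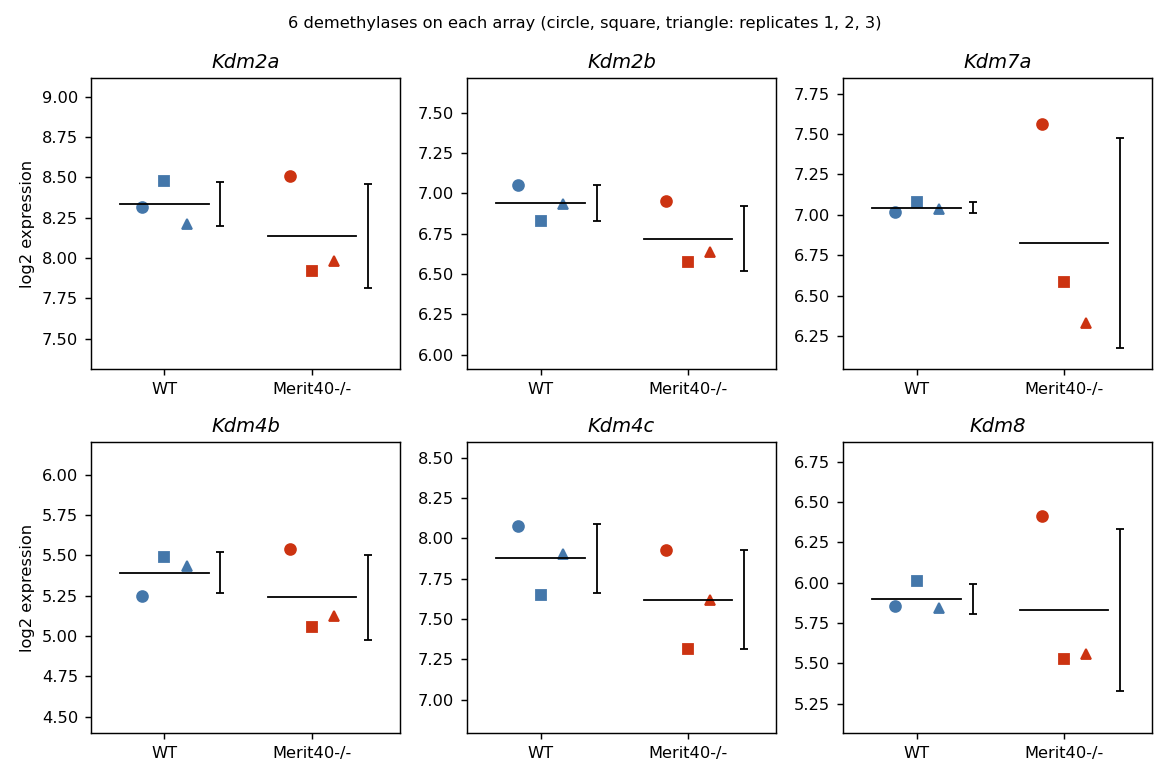
Log2 expression (y axis, of equal length in each panel) of 6 demethylases on the WT (blue) and Merit40-/- (red) arrays, with the mean as a line and the SD over 3 arrays as a bar; circles, squares and triangles are replicates 1, 2 and 3. These genes, chosen after their values were seen, have Merit40-/- replicates 2 and 3 below all WT arrays and Merit40-/- replicate 1 among or above them, for example 7.56 against 6.58 and 6.33 for Kdm7a.

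Promoter sequence is the feature that could be compared beyond expression. RefSeq promoter windows (build GRCm38.p6) matched 25 of 36 members with 35 windows, and the 250 bases before each start were used, beside 21141 windows of 17452 tested genes. Kdm2a, Kdm3b, Kdm4b, Kdm5a, Kdm6b, Kmt2b, Kmt2e, Nsd1, Nsd2, Nsd3 and Setd1b had no entry. Kdm7a and Kdm8 are printed because both had the same arrangement of arrays, with Merit40-/- replicate 1 high and replicates 2 and 3 low. The Kdm7a window lies at chr6:39206774-39207023 on the minus strand and the Kdm8 window at chr7:125444370-125444619 on the plus strand. Capitals mark the CpG dinucleotides, the substrate of DNA methylation and the binding site of the CXXC zinc finger of Kdm2a and Kdm2b.
Kdm7a: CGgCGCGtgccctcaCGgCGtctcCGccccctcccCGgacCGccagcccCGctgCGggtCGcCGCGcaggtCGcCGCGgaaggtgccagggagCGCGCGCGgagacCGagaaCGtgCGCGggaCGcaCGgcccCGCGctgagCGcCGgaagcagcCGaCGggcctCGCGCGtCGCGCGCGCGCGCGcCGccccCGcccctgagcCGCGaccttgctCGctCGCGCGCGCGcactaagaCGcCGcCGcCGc
Kdm8: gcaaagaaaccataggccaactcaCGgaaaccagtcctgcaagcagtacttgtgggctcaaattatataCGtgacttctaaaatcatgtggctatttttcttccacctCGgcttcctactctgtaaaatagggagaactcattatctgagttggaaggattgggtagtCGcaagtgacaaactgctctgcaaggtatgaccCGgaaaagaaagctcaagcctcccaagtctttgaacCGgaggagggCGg

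The printed windows differ in CpG content. That of Kdm7a holds 56 CpG, a count exceeded by none of the windows used, and is 82.0% G and C, whereas that of Kdm8 holds 7 CpG, below the median of all tested genes, and is 46.8% G and C. Over the members the median was 21 CpG per window, beside 10 over all tested genes, and 30 of 35 windows (85.7%) held 10 or more, beside 50.7%. The GC box GGGCGG, the motif of Sp1 family factors, was found on either strand in 62.9% of the members' windows and in 43.2% of all windows. The CCAAT box, searched as CCAAT, was found in 45.7% and 35.0%, and the ETS motif CCGGAAG in 17.1% and 8.92%. The TATA box TATAAA was found in 0 of 35 windows of members and in 11.1% of all, and the GATA motif AGATAA in 11.4% and 8.65%. Matches to different motifs were counted separately and may overlap, several windows can belong to 1 gene, and a match is a run of letters and not a measured binding site. Of the 36 members, 35 had a mean level above the median of all genes. Their windows were not compared with those of genes at like levels.

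**Figure D5:**
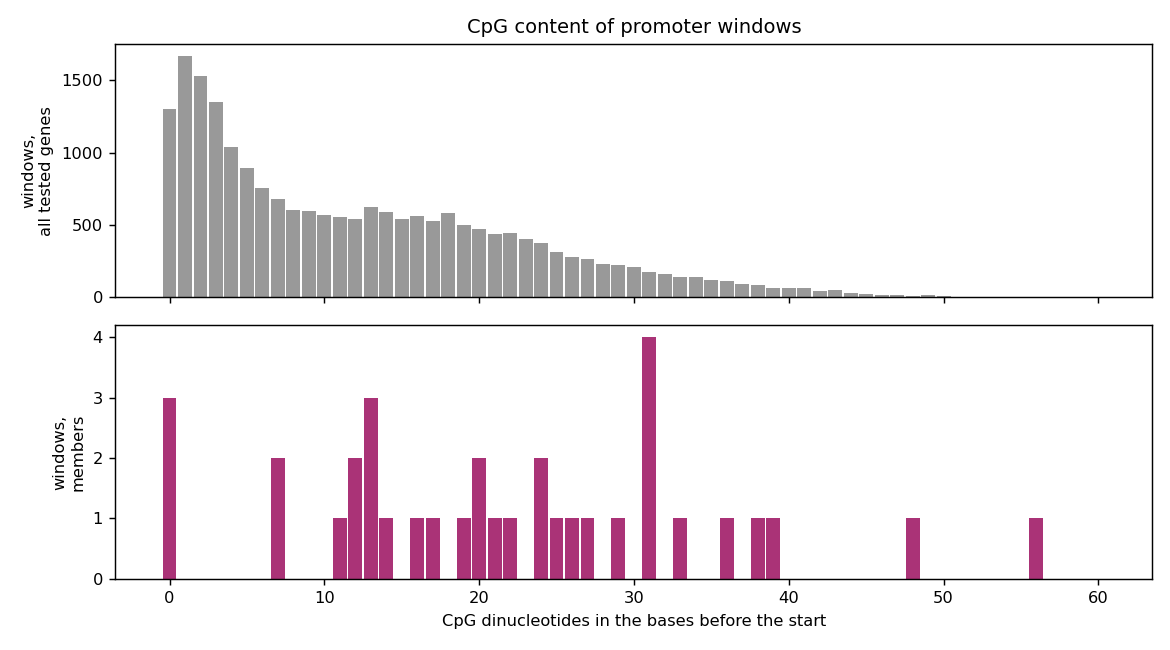
Number of promoter windows (y axis) by the count of CpG dinucleotides in the 250 bases before the start (x axis), for all tested genes (grey, top) and for the members (purple, bottom). The members' windows have a median of 21 CpG beside 10 for all, and 3 of them hold none.

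Genes for partners of these enzymes did not pass the test either. Of the 15 subunits and cofactors of the KMT2 and SETD1 complexes, 0 were called, 6 were higher and 9 lower, with a median difference of -0.0072. They ran from the cofactor gene Hcfc2 at -0.15 (SE 0.17) to the core subunit gene Rbbp5 at 0.16 (SE 0.15). The 11 measured target genes of MLL1, such as the Hoxa genes, had 0 called and a median of 0.050, from Hoxa6 at -0.27 (SE 0.12) to the H3K9 methyltransferase and HSC factor Mecom at 0.26 (SE 0.16). Hoxa6 read 7.09, 7.25 and 7.36 in WT and 6.93, 7.01 and 6.93 in Merit40-/-, with no overlap, and was 1 of 11 in this list (9.09%) beside 9.05% of all genes.

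Among 16 measured partners of Kdm1a and Kdm2b, 0 were called and 10 were higher, with a median of 0.086. The highest was Rcor3, a CoREST paralogue that binds Kdm1a. It read 7.41, 7.42 and 7.49 in WT HSCs and 7.72, 7.97 and 7.73 in Merit40-/- HSCs, a difference of 0.37 (SE 0.12) or 1.29-fold, with no overlap between genotypes, and it was the 1 gene of the 16 (6.25%) with an unadjusted p under 0.05, beside 4.22% of all genes. Its adjusted p was 0.999 in limma. Rcor1, the main CoREST gene, read 8.20, 8.21 and 7.91 in WT and 8.71, 8.49 and 7.99 in Merit40-/-. The lowest was Gfi1, the repressor that recruits Kdm1a, at 5.58, 5.52 and 5.84 in WT and 5.39, 5.47 and 5.35 in Merit40-/-, a difference of -0.24 (SE 0.13), likewise with no overlap. Rcor3 and Gfi1 were the 2 genes of the 16 (12.5%) whose arrays did not overlap, beside 9.05% of all genes.

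Other lysine methyltransferases, 16 of 18 measured, had 0 called, a median of -0.019 and a range from the Polycomb enzyme Ezh2 at -0.17 (SE 0.15) to Mecom. Ehmt1, higher in Merit40-/-, was the 1 of 16 (6.25%) whose arrays did not overlap, beside 9.05% of all genes. Of the 10 other JmjC proteins 0 were called, and they had a median of 0.018, with Phf2 highest at 0.14 (SE 0.15). Hif1an, the asparagine hydroxylase that restrains hypoxia-inducible factors, was the lowest at -0.41 (SE 0.15), read 5.90, 5.89 and 5.85 in WT and 5.78, 5.36 and 5.28 in Merit40-/-, and did not pass (adjusted p = 0.999 in limma). It was the 1 gene of the 10 (10%) with an unadjusted p under 0.05, beside 4.22% of all genes. Hif1an and Hr, both lower in Merit40-/-, were the 2 of 10 (20%) whose arrays did not overlap, beside 9.05% of all genes. The 9 measured SETDB1 silencing partners had 0 called and a median of -0.0081, from Trim28 at -0.14 (SE 0.12) to Morc2a at 0.09 (SE 0.16).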

How the data were processed

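The authors deposited log2 expression values for 6 arrays. The submitters' processing notes name RMA and affy as the tools. RMA corrects background, gives all arrays like intensity distributions and summarises probes, so that an overall difference in RNA amount is removed. Their versions are not stated, nor is the build or chip definition. Probe sets carry Entrez Gene numbers: 23185 of 25206 had 1 gene symbol, 0 several and 2021 were unnamed here, and current symbols came from RefSeq (GRCm38.p6).

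Differences were fitted with limma 3.58.1 in R 4.3.3 over the 23185 genes (genotype as the only term, 2-sided, Benjamini-Hochberg adjustment, threshold 0.05). The procedure was tested on simulated data with added differences larger than any of the members'. How often it calls differences as small as theirs was not tested. The number of arrays limits the precision. Members and lists were chosen with earlier results of these data known. All members are named; of the other lists, the genes with the highest and lowest difference and Babam1. Marker genes named for their level, Rcor1 and the 6 plotted demethylases were singled out after their values were seen. So were Ehmt1, Hr, Mmp9 and Cenpe, named for an unadjusted p or for arrays without overlap. Over all probe sets of named genes Pearson's r was 0.984 to 0.988 within and 0.985 to 0.988 between genotypes, across genes, which are not replicates. Promoter windows were read with Python 3.11.15. Alternatives were a replicate block, other variance models, array weights, 3 scalings, 2 filters on dim genes, a looser threshold, an unmoderated test and left-out arrays.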

Additional observations from a re-analysis of the deposited data

How the results depend on the processing

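Under the 17 alternatives to the fit, and at an adjusted p under 0.1, 0 of 36 members were called, with a smallest adjusted p of 0.485 in limma for Kmt5c without both Merit40-/- replicate 1 and Merit40-/- replicate 3, an alternative added after the data were seen. That alternative takes the lone Merit40-/- array to vary like WT. It called 2 genes in all, counted 3 members at an unadjusted p under 0.05 (Kmt5c, Kdm7a and Kdm4c) beside 6.36% of all genes, gave 18 members without overlap beside 50.9% of all genes, and a gap between the class medians of -0.31. The unmoderated test called 0 genes, with Babam1 at an adjusted p of 0.168, and it counted 990 genes (unadjusted p under 0.05). With 1 array left out in turn, 0 to 4 of 36 members had an unadjusted p under 0.05, beside 3.29% to 4.89% of all genes, 2 to 7 did not overlap, beside 16.9% to 19.6%, the median difference of the members ran from -0.076 to 0.0071, the highest without Merit40-/- replicate 3, and the gap between the classes from -0.23 to -0.051. The number of lower demethylases stayed between 10 and 13 of 15 and that of lower methyltransferases between 6 and 13 of 21 in the alternatives run. Of the 36 members, 23 changed sign under at least 1 alternative, all by leaving out arrays, and 13 kept 1 sign. No pairing of the arrays by replicate number was visible. Deviations from the group means correlated at -0.048, -0.0027 and 0.044 for the same numbers, and from -0.066 to 0.070 for different ones. With 3 arrays per group these values cannot decide whether a weak pairing exists. With the replicate block 1 gene and 0 members were called and 0 members had an unadjusted p under 0.05. The causes of these changes were not tested.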
